A study of Mus musculus with 6 samples.

Results

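The suppressor of cytokine signaling (SOCS) family was followed in hematopoietic progenitors of mice given ruxolitinib (RUX), a drug that blocks the kinases JAK1 and JAK2. Its 8 genes, Cish and Socs1 to Socs7, were taken by symbol from a table of 24421 genes, and all 8 were found and passed the filter on low counts, which left 13411 genes. RNA came from Lin-CD117+ bone marrow cells, which lack lineage antigens and carry the KIT receptor, of CByB6F1 mice, an F1 hybrid of BALB/cBy and C57BL/6 strains. The 3 RUX pools (pools 4, 5 and 6) and the 3 untreated pools (pools 1, 2 and 3) each combined sorted cells of 2 to 3 mice of one group. All mice were labelled female and 2 to 5 months old. The labels call the controls untreated and name no vehicle; dose, duration and the interval between last dose and sampling are not stated in them. The mice are called normal in the series' title, so the pools model the drug in healthy marrow, and each pool hides the differences between the mice in it.

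SOCS proteins are the negative feedback of cytokine receptors. A cytokine activates JAK kinases, these phosphorylate STAT factors, and STATs switch on SOCS genes, whose products bind the receptor or the kinase through an SH2 domain and recruit a ubiquitin ligase through a SOCS box. CIS, the product of Cish, and SOCS1, SOCS2 and SOCS3 are the members known for rapid induction by cytokines in blood cells, whereas SOCS4 to SOCS7 are known more for growth factor receptors and are less tied to STAT induction. Since JAK kinases lie between receptor and SOCS gene, the design puts the transcripts of a feedback loop beside the inhibition of its kinase.

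The promoter sequences of 3 members that cytokines induce are shown because STAT factors and interferon-regulated factors are known to induce these genes from short motifs near their starts. Of the 8 members, 4 (Cish, Socs1, Socs3 and Socs4) matched by symbol in a RefSeq promoter table of GRCm38.p6, and Socs2, Socs5, Socs6 and Socs7 are named only. Each sequence is the stretch of 250 bases before the first exon of the deposited annotation, 5′ to 3′ on the gene's strand. Capitals mark TTCNNNGAA, the palindromic STAT core, in Cish (chr9:107296439-107296688, plus strand) and Socs3 (chr11:117969367-117969616, minus strand). In Socs1 (chr16:10785537-10785786, minus strand) they mark GAAANNGAA, the core of interferon response elements.
Cish: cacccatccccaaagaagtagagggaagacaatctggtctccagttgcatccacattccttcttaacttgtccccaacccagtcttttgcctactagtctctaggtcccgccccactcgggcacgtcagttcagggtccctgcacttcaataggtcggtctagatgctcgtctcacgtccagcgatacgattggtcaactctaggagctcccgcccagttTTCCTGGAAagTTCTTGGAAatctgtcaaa
Socs1: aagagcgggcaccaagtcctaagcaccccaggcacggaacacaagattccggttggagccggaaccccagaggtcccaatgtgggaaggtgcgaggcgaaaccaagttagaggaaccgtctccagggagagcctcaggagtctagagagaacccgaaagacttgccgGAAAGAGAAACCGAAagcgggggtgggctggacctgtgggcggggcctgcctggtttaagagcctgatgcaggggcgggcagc
Socs3: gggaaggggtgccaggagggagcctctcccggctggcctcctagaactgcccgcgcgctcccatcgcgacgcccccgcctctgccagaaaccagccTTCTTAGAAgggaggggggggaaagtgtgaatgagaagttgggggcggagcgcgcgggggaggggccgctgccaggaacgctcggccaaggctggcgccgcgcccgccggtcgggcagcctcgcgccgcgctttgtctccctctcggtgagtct

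Cish held 2 STAT cores in tandem, the first starting 30 and the second 19 bases before the deposited first exon. RefSeq places the Cish start 30 bases further upstream, so that both cores fall just after the RefSeq start and none lies in the 250 bases before it. Socs3 held 1 STAT core, starting 154 bases before its start. Socs1 held no STAT core and 2 matches of GAAANNGAA, starting 83 and 77 bases before its start and overlapping by 3 bases. Both motifs were searched on both strands, the second chosen after the sequences were seen, in windows of 300 bases around 32851 RefSeq starts, some of them of the same gene. TTCNNNGAA was in 8.30% of these windows and 2 or more times in 0.457%, and GAAANNGAA was in 8.56% and 2 or more times in 0.624%. The Socs4 window held neither motif. A match of letters is a description, not a binding site.

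The libraries held 46027491 to 48747137 counted read pairs in RUX pools and 27354768 to 38691826 in untreated pools, so untreated libraries were the shallower ones. RUX pool 4 and untreated pool 3 stood apart from the other 4 pools on the first principal component (39.7% of the variance). Kit, the receptor used in the sort, measured 277 to 431 CPM (read pairs scaled to library size, here the whole library) in RUX pools and 191 to 476 CPM in untreated pools, lowest in untreated pool 3. Among lineage antigens removed by the sort, Cd3e of T cells was at 0.103 to 0.196 and 0.146 to 0.543 CPM of the whole library in RUX and untreated pools. Across all tested genes, edgeR's quasi-likelihood test called 0 at a Benjamini-Hochberg adjusted p under 0.05 (0% of those tested), and so did DESeq2 and limma-voom. Unadjusted p-values under 0.05 were found for 254 genes in edgeR (1.89%), 320 in DESeq2 and 262 in limma-voom.

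The family was dominated by Socs6, Socs4 and Socs5, members that are less tied to STAT induction. Levels between genes are given here as CPM of the scaled library per kilobase of exon, as mean ± SD over the 6 pools. Socs6, whose product binds activated KIT, was highest at 11.3 ± 0.927 CPM per kilobase, above 57.6% of all tested genes on this scale. Socs4 and Socs5, whose products restrain the epidermal growth factor receptor, followed at 5.31 ± 0.402 and 4.18 ± 0.539 CPM per kilobase. The order Socs6, Socs4, Socs5 and Cish held in each of the 6 pools, and the ranges of these 4 genes did not overlap.

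The cytokine-induced members and Socs7 lay lower on the same scale. Cish averaged 2.17 ± 0.513, Socs2 1.43 ± 0.396 and Socs1 1.41 ± 0.676 CPM per kilobase, and Socs7, an adaptor-binding member linked to insulin signaling, averaged 1.63 ± 0.490. The ranges of Cish, Socs7, Socs2 and Socs1 overlapped. Cish exceeded Socs7 in 5 of 6 pools, Socs7 exceeded Socs2 in 4 and Socs2 exceeded Socs1 in 4, so the order among these neighbours was not fixed. Socs3, the inhibitor of gp130 and of the G-CSF receptor, was lowest at 0.467 ± 0.101 CPM per kilobase, above 13.5% of tested genes. It lay below Socs1 in all 6 pools, at 27 to 73 counted read pairs per pool.

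**Figure D1:**
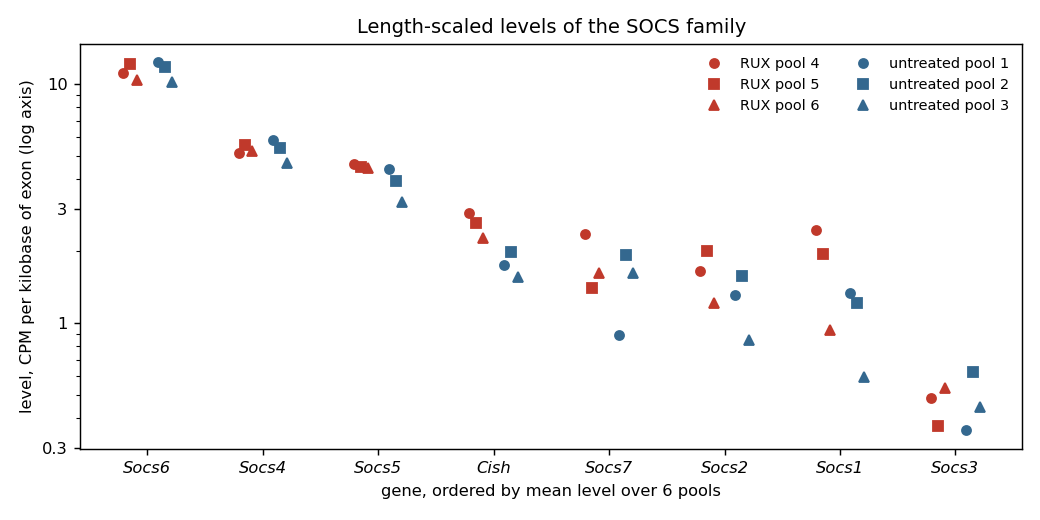
Level of each member in each pool, in CPM per kilobase of exon on a log axis, with genes ordered by their mean over the 6 pools; points are RUX pools (left of each gene) and untreated pools (right). Socs6 (10.2 to 12.3) lies above all others and Socs3 (0.354 to 0.620) is lowest on average.

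None of the 8 members differed between RUX and untreated pools at an adjusted p under 0.05. Log2 fold changes were positive for 6 and negative for 2 of the 8 members, and their median was 0.25, where 49.2% of all tested genes were positive and their median was −0.004. Cish was the only member with an unadjusted p under 0.05 in edgeR, where 0.85% of tested genes were higher at that level, and likewise 1 member passed that level in DESeq2 and in limma-voom. That count was 0 in 4 of the 6 fits that left out a single pool, without untreated pool 1 or 3 or RUX pool 4 or 5, where the unadjusted edgeR p of Cish was 0.0608 to 0.0938. It was 2 without RUX pool 6, where Socs1 joined Cish at an unadjusted edgeR p of 0.0177. It was also 2 without the low-count filter, where Socs1 had an unadjusted edgeR p of 0.0311. Without that filter, p-values had the tails of a normal distribution and took no account of a gene's own spread between pools. For Cish and Socs5 all 3 RUX pools lay above all 3 untreated pools, an arrangement met by 2.99% of tested genes, and no member lay entirely below (3.25% of tested genes). In sorted bulk pools, fewer cells of a type and less RNA per cell cannot be told apart.

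Cish encodes CIS, which STAT5 induces downstream of the erythropoietin, IL-3 and IL-2 receptors and which occupies the receptor sites where STAT5 would dock. The gene spans chr9:107296689-107301961 in mm10, with 3 exons. Cish measured 6.23, 5.66 and 4.88 CPM in RUX pools 4, 5 and 6, and 3.79, 4.27 and 3.35 CPM in untreated pools 1, 2 and 3. All 3 RUX pools were above all 3 untreated pools, and the closest pair, RUX pool 6 and untreated pool 2, differed by a factor of 1.14. The means were 5.59 ± 0.679 CPM in RUX and 3.80 ± 0.462 CPM in untreated pools (SD, n = 3 each). The log2 fold change was 0.55 ± 0.23 (SE), with a 95% interval of 1.04-fold to 2.07-fold higher, an unadjusted edgeR p of 0.0320 and an adjusted p of 1.00. A two-sided exact permutation test over the pools gave 0.1, the smallest p that 3 against 3 pools allow.

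The Cish counts, 106 to 276 read pairs per pool, carry a counting error of 6.02 to 9.71%, against a spread of 12.2% between pools of either group. Leaving out the pools that stood apart, RUX pool 4 and untreated pool 3, gave a log2 fold change of 0.39. The unadjusted edgeR p was then 0.174. These pools held the highest and the lowest Cish value, so leaving them out had to make the difference smaller. In GENCODE M21, 479 exon bases of Cish overlap an antisense transcript, Gm17041, and 103 a pseudogene, Gm17040, both on the opposite strand. The counting used no strand option, so reads of these loci cannot be told apart from reads of Cish there. Exons of the other 7 members overlapped no other gene in the deposited annotation or in GENCODE M21.

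Markers of megakaryocytes and platelets also summed to higher values in RUX pools. All 11 tested markers of that list, out of 12, had positive log2 fold changes, and their summed level was 212 to 233 CPM in RUX pools and 176 to 200 CPM in untreated pools; no marker was at 0 in all pools. Their part in the Cish difference was not tested.

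Socs1 encodes the inhibitor of interferon and IL-2 family signaling that blocks JAK kinases directly. It spans chr16:10783809-10785536 with 2 exons. Socs1 measured 3.27, 2.60 and 1.25 CPM in RUX pools 4, 5 and 6, and 1.79, 1.61 and 0.796 CPM in untreated pools 1, 2 and 3. RUX pools 4 and 5 were above every untreated pool, while RUX pool 6 lay within the untreated range. The log2 fold change of 0.77 ± 0.42 (SE) was the largest of the family over all 6 pools, with a 95% interval of 0.910-fold to 3.17-fold and an unadjusted edgeR p of 0.0899. Its spread between pools of a group, 43.3% in RUX and 37.8% in untreated pools, exceeded the counting error of 8.42 to 18.6%. The value moved with the pools used: it was 1.07 without RUX pool 6, 0.47 without RUX pool 4, 0.48 without untreated pool 3 and 0.18 without RUX pool 4 and untreated pool 3 together. RUX pool 4 was the highest and untreated pool 3 the lowest pool, so leaving them out had to make the value smaller. RUX pool 6 was the lowest RUX pool, so leaving it out had to make the value larger.

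Socs2 encodes the inhibitor known for limiting growth hormone signaling. It spans chr10:95411490-95416857 with 5 exons. Socs2 measured 4.43, 5.37 and 3.25 CPM in RUX pools 4, 5 and 6, and 3.54, 4.22 and 2.28 CPM in untreated pools 1, 2 and 3. RUX pools 4 and 5 were above every untreated pool, while RUX pool 6 was below untreated pools 1 and 2. The log2 fold change was 0.38 ± 0.29 (SE), with a 95% interval of 0.839-fold to 2.01-fold and an unadjusted edgeR p of 0.219. It was 0.16 without untreated pool 3, 0.20 without RUX pool 5 and 0.15 without RUX pool 4 and untreated pool 3 together. Untreated pool 3 was the lowest and RUX pool 5 the highest pool, so leaving out either had to make the value smaller.

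Socs3, on chr11:117966087-117969366 with 2 exons, showed no separation of the groups. Its level was 1.32, 1.00 and 1.45 CPM in RUX pools 4, 5 and 6, and 0.964, 1.69 and 1.21 CPM in untreated pools 1, 2 and 3. The untreated pools held both the lowest and the highest value, and the counting error of a single pool was 11.7 to 19.2%. RUX minus untreated was −0.04 ± 0.38 on the log2 scale (SE), with a 95% interval of 0.553-fold to 1.71-fold. Its sign changed to 0.22 without untreated pool 2 and to 0.10 without RUX pool 5. The interval rests on the spread between 3 pools a group, estimated with information from all tested genes. A difference inside the interval could not be told from that spread.

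**Figure D2:**
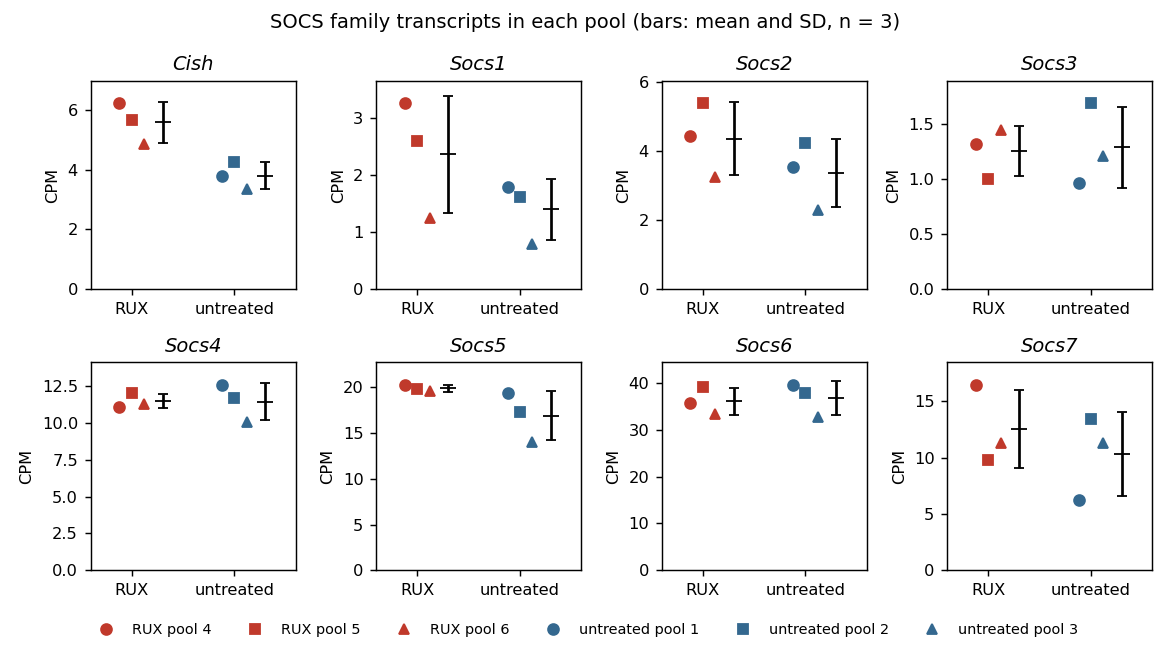
CPM of each member in the 3 RUX pools (left) and the 3 untreated pools (right), one panel per gene with the vertical axis starting at 0; the black marks are mean and SD. Cish and Socs5 have all RUX pools above all untreated pools, for Socs5 by 20.3, 19.8 and 19.6 CPM in RUX pools and at most 19.4 CPM in untreated pools.

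Of the members tied to growth factor receptors, Socs5 had the most even RUX pools. Socs5 spans chr17:87107679-87137588 with 3 exons. It measured 20.3, 19.8 and 19.6 CPM in RUX pools 4, 5 and 6, and 19.4, 17.3 and 14.03 CPM in untreated pools 1, 2 and 3. The groups did not overlap, but the closest pools, RUX pool 6 and untreated pool 1, differed by a factor of 1.009, within the counting error of 3.18 to 4.42%. The spread between pools was 1.81% in RUX and 16.0% in untreated pools, and the difference between these spreads was not tested. On the log2 scale RUX minus untreated was 0.23 ± 0.17 (SE), with an unadjusted edgeR p of 0.192, and it was 0.12 without untreated pool 3.

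Socs4 and Socs6 were the most even members. Socs4, on chr14:47277143-47291591 with 2 exons, measured 11.1, 12.01 and 11.3 CPM in RUX pools 4, 5 and 6, and 12.6, 11.7 and 10.1 CPM in untreated pools 1, 2 and 3. Socs6, on chromosome 18 from 88867880 to 88894207 with 3 exons, measured 35.7, 39.1 and 33.3 CPM in RUX pools and 39.6, 37.9 and 32.6 CPM in untreated pools, in the same pool order. RUX values lay inside the untreated range for both genes. The log2 fold change was 0.004 ± 0.18 (SE) for Socs4 and −0.03 ± 0.15 (SE) for Socs6, with 95% intervals of 0.768-fold to 1.31-fold and 0.785-fold to 1.23-fold. Both signs changed when single pools were left out.

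Across the 6 pools the highest value of Socs4 was 1.25 times and that of Socs6 1.21 times the lowest, where for Socs1 this ratio was 4.10. The pool deviations of Socs4 and Socs6 on the log2(CPM + 1) scale differed by 0.04 on average, the smallest difference among pairs of members.

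Socs7, on chr11:97362551-97398542 with 10 exons, was uneven at high counts. It measured 16.4, 9.82 and 11.3 CPM in RUX pools 4, 5 and 6, and 6.21, 13.4 and 11.3 CPM in untreated pools 1, 2 and 3. RUX pool 4 was the highest and untreated pool 1 the lowest, and the remaining 4 pools of both groups were intermixed. The spread of 27.8% in RUX and 36.0% in untreated pools stood against a counting error of 3.75 to 7.58%. Socs7 differed by 0.27 ± 0.27 on the log2 scale (SE), with an unadjusted edgeR p of 0.332, and 0.02 without untreated pool 1, the shallowest library.

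**Figure D3:**
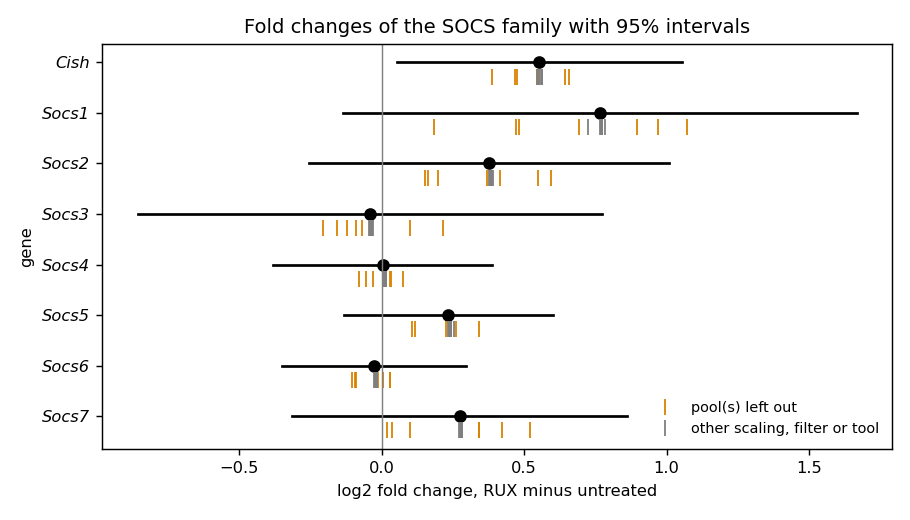
Log2 fold change of each member, RUX minus untreated (dot), with its 95% interval (line) from edgeR; ticks below each line are the values in 14 other settings, orange with 1 or 2 pools left out and grey with another scaling, filter or tool. Only the Cish interval lies above 0 (0.06 to 1.05), without correction for the number of genes, and leaving out pools moves the values more than the other settings do.

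The 95% interval lay within 2-fold in either direction for 5 members, Socs3 to Socs7, as it did for 80.9% of tested genes. For Cish, Socs1 and Socs2 it reached beyond a doubling. A halving lay outside the interval of every member, the nearest lower bounds being 0.553-fold for Socs3 and 0.768-fold for Socs4.

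One pool was the lowest for most members. Untreated pool 3 was the lowest of the 6 pools for 6 of 8 members, Cish, Socs1, Socs2, Socs4, Socs5 and Socs6, and RUX pool 4 was the highest for 4, Cish, Socs1, Socs5 and Socs7. Untreated pool 3 was also lowest for Kit and highest for the summed level of neutrophil markers, of which 15 of 16 were tested. The sum of these 15 was 8493 to 12258 CPM in RUX pools and 6975 to 15990 CPM in untreated pools, and none was at 0 in all pools. Mpo, the myeloperoxidase gene of early granules, made up most of that sum, at 6973, 7182 and 6035 CPM in RUX pools 4, 5 and 6, and 5487, 3630 and 9240 CPM in untreated pools 1, 2 and 3. Of the 15, 10 were negative and 5 positive, their median log2 fold change being −0.81, and 0 passed the test. Ltf, the lactoferrin gene of late granules, measured 72.5, 68.2 and 28.9 CPM in RUX pools, and 8.93, 152 and 147 CPM in untreated pools, in the same order. Untreated pool 1 was the lowest pool for Ltf, and the groups overlapped. Without the low-count filter 9 of these markers had an adjusted edgeR p under 0.05, all lower in RUX pools. That fit took no account of each gene's own spread between pools, which was wide for Ltf. The 12 tested monocyte, macrophage and dendritic markers, of 15, summed to 962 to 1378 CPM in RUX and 1151 to 1847 CPM in untreated pools, again highest in untreated pool 3. Their part in the SOCS values was not tested.

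The make-up of the family varied from pool to pool. Cish, Socs1, Socs2 and Socs3 together formed 24.3, 22.6 and 18.5% of the family's summed CPM per kilobase in RUX pools 4, 5 and 6, and 16.8, 18.9 and 14.9% in untreated pools 1, 2 and 3. RUX pool 6 lay below untreated pool 2, so the groups overlapped. The share of Cish alone was 9.40, 8.56 and 8.49% in RUX pools and 6.21, 6.95 and 6.72% in untreated pools, without overlap. The share of Socs6 was 36.3, 39.9 and 38.99% in RUX pools and 43.7, 41.5 and 44.1% in untreated pools, also without overlap, although its own level differed little. A share falls when other members rise, so these are no separate results.

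**Figure D4:**
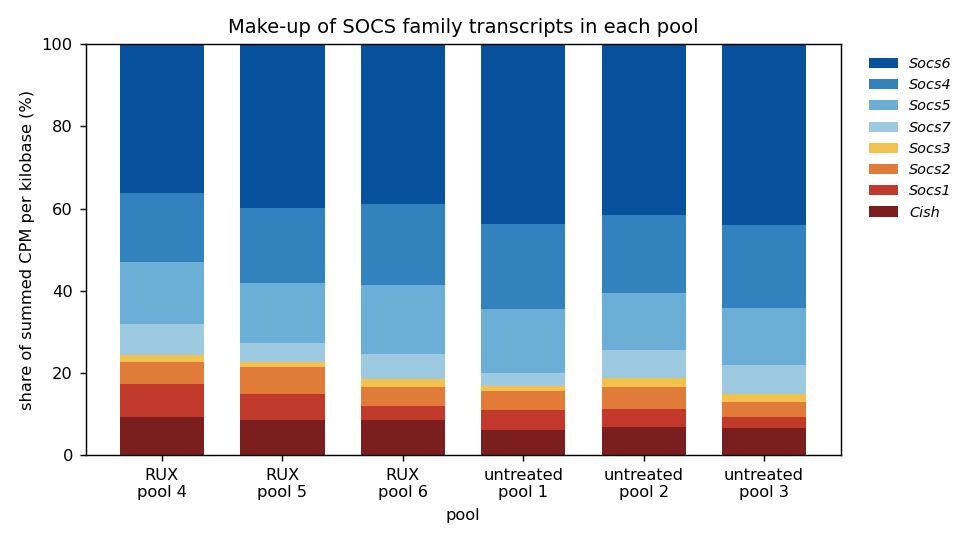
Share of each member in the family's summed CPM per kilobase, in percent, for the 3 RUX pools (left) and the 3 untreated pools (right); each bar is 1 pool. Cish, at the bottom, takes 8.49 to 9.40% in RUX pools and 6.21 to 6.95% in untreated pools, and Socs6, at the top, 36.3 to 39.9% in RUX pools and 41.5 to 44.1% in untreated pools.

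No receptor that SOCS proteins restrain passed the test. Of 27 such receptors 22 were tested, 0 passed in either direction, and 16 log2 fold changes were positive and 6 negative, their median being 0.08. Ghr, the growth hormone receptor that SOCS2 restrains, measured 1.34, 2.42 and 1.61 CPM in RUX pools 4, 5 and 6, and 1.29, 0.307 and 0.577 CPM in untreated pools 1, 2 and 3. All RUX pools lay above all untreated pools, as in 3 of the 22 receptors and 2.99% of all tested genes. The difference was 1.34 ± 0.49 on the log2 scale (SE), at an adjusted edgeR p of 1.00. Kit, to which SOCS6 binds, averaged 375 ± 68.9 CPM in RUX and 359 ± 144 CPM in untreated pools (SD, n = 3 each).

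The kinases and factors upstream of SOCS genes did not pass the test. Of 11 JAK and STAT genes, 0 passed, 5 were positive and 6 negative, with a median log2 fold change of −0.01. Stat5a, which induces Cish, averaged 98.4 ± 9.18 CPM in RUX and 109.5 ± 5.46 CPM in untreated pools (SD, n = 3 each). Jak2, a target of RUX, averaged 74.2 ± 10.4 CPM in RUX and 83.5 ± 17.9 CPM in untreated pools. Both genes overlapped between the groups.

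Other genes that the same signals induce did not pass either. Of 16 further STAT3 or STAT5 targets, 9 were positive and 7 negative, with a median of 0.03. Pim2, a survival kinase, measured 13.1 to 15.8 CPM in RUX and 11.5 to 12.7 CPM in untreated pools, and Myc, a growth regulator, 424 to 451 CPM in RUX and 353 to 404 CPM in untreated pools. In both, all RUX pools lay above all untreated pools, as in 2 of the 16 genes and 2.99% of all tested genes. Their log2 fold changes were 0.24 ± 0.17 and 0.19 ± 0.14 (SE). The unadjusted edgeR p was 0.187 for Pim2 and 0.188 for Myc, the smallest of this list. Of 20 interferon-induced genes, 14 were positive and 6 negative with a median of 0.13. In 5 of the 20 the unadjusted edgeR p was under 0.05, all higher in RUX pools (0.85% of all tested genes). In 4 of the 20 all RUX pools lay above all untreated pools (2.99% of all tested genes). Among the 20, the antiviral gene Oasl2 measured 11.2, 15.9 and 11.4 CPM in RUX pools 4, 5 and 6, and 7.46, 9.06 and 7.06 CPM in untreated pools 1, 2 and 3, without overlap. For Rtp4, a receptor transporter, the values were 25.1, 22.5 and 16.6 CPM in RUX pools and 16.7, 14.4 and 14.5 CPM in untreated pools, in the same order, and the groups overlapped.

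Genes listed as partners of the SOCS box had more negative than positive values. Of 8 tested genes on this list (elongins, cullins, RING proteins and linked ligases), 2 were positive and 6 negative, with a median of −0.11 and 0 passing. The list holds Cul2 and Rbx1 besides Cul5 and Rnf7, and these were not counted apart. The elongin genes are listed under the older symbols Tceb1 and Tceb2. The cullin gene Cul2 measured 78.3 to 96.9 CPM in RUX and 91.9 to 134 CPM in untreated pools, and the RING protein gene Rnf7 118 to 172 CPM in RUX and 132 to 177 CPM in untreated pools, both overlapping. Cul5, the other cullin gene listed, measured 70.7 to 79.0 CPM in RUX and 59.4 to 99.2 CPM in untreated pools, also overlapping. Of 19 tested genes for other SOCS box proteins, of 21, 13 were positive and 6 negative with a median of 0.07 and 0 passing. Asb7 and Wsb1, substrate receptors of such ligases, had log2 fold changes of 0.27 and −0.23.

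Inhibitors of the pathway outside the SOCS family showed no common direction. Of 17 phosphatases, PIAS proteins, adaptors and related genes, 7 were positive and 10 negative, with a median of −0.04 and 0 passing. Dusp6, a phosphatase of ERK kinases, measured 42.2, 45.6 and 36.2 CPM in RUX pools 4, 5 and 6, and 57.5, 56.5 and 44.5 CPM in untreated pools 1, 2 and 3. RUX pool 5 lay above untreated pool 3, so the groups overlapped, and the difference was −0.35 ± 0.16 on the log2 scale (SE), at an adjusted edgeR p of 1.00. Pias4, a SUMO ligase that restrains STATs, measured 23.7 to 29.0 CPM in RUX and 20.4 to 23.0 CPM in untreated pools. All RUX pools lay above all untreated pools for Pias4, as in 2 of the 17 genes and 2.99% of all tested genes. The difference was 0.27 ± 0.16 on the log2 scale (SE).

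**Figure D5:**
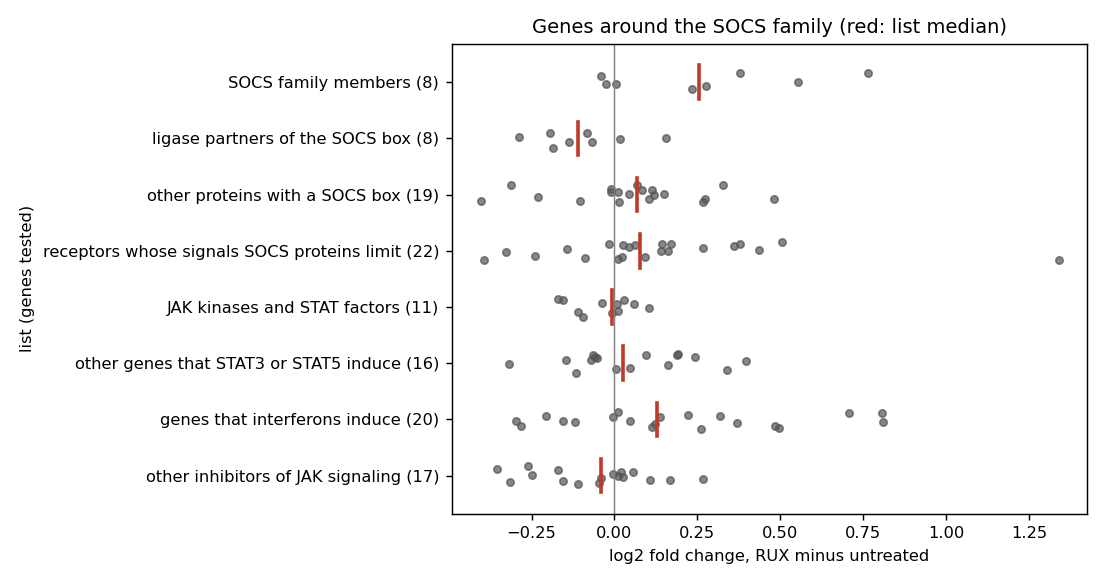
Log2 fold changes, RUX minus untreated, of the SOCS family and of 7 lists around it; each point is 1 tested gene, the red line is the list's median and the number in brackets is how many genes were tested. The SOCS family's median is 0.25 and the other medians lie between −0.11 and 0.13; 0 genes passed the test.

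Genes with the most similar pool pattern were sought for the cytokine-induced members. Likeness was the mean absolute difference between the pool deviations of 2 genes on the log2(CPM + 1) scale over the 6 pools, among 9533 genes with a mean of at least 5 CPM. Nearest to Cish were Rhof (0.07), Il12rb2, an IL-12 receptor subunit gene (0.08), and Cdk12, a transcription kinase gene (0.08), where the median gene differed by 0.26. Nearest to Socs1 were Ikzf2, an Ikaros family factor gene (0.09), Iigp1, an immunity-related GTPase gene (0.12), and Trim30d (0.13), with a median of 0.38. Nearest to Socs2 were Fam222b, Slc45a3 and Hes1, a Notch target (0.07, 0.08 and 0.08, with a median of 0.29). Nearest to Socs3 were Banp, Scaf11 and Hsph1 (0.03, 0.03 and 0.04, with a median of 0.20). With 6 pools and 9533 candidates some genes lie close to any pattern, and pools share depth and cell make-up across all genes.

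The remaining cell type markers gave these values. Of 11 tested stem and progenitor markers, 9 were positive, and their summed level was 1145 to 1316 CPM in RUX and 802 to 1308 CPM in untreated pools. The 13 tested erythroid markers summed to 5844 to 8682 CPM in RUX and 6235 to 7337 CPM in untreated pools, with Hba-a1 and Hbb-bt at 0 counts in every pool. The 14 tested eosinophil, basophil and mast cell markers summed to 208 to 505 CPM in RUX and 200 to 475 CPM in untreated pools. Of 16 tested B, T and NK markers, 12 were negative, with sums of 666 to 896 CPM in RUX and 886 to 973 CPM in untreated pools.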

How the data were processed

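Takara's SMART-Seq mRNA LP kit was used for the libraries, per the labels' protocols. STAR (version not stated) aligned reads to mm10, per the submitters' processing notes. The authors deposited a raw count of read pairs for each gene, made by featureCounts 2.0.3 on UCSC mm10 exons with no strand, multi-mapping or multi-overlap option, per the file headers. The summed exon length per gene is also from the deposited table.

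Version 4.0.16 of edgeR (R 4.3.3) retained 13411 genes by filterByExpr, scaled libraries by TMM (factors 0.938 to 1.03) and ran the two-sided quasi-likelihood test on all genes with treatment as the only term, adjusted by Benjamini-Hochberg at 0.05. The 95% intervals use an SE taken as the fold change over the root of F. CPM is relative to the scaled library of tested genes unless stated. The test was also run on simulated counts, but the outcome is not given here and no result above rests on it. P-values of the reported fit measure the spread between pools of different mice, estimated for each gene with information from all tested genes. Those of the fit without the low-count filter take no account of a gene's own spread between pools. Counting errors, 100 divided by the square root of the count, cover counting alone, since reads were amplified without stated molecular identifiers.

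The members and lists were chosen with earlier results of these data known. Named genes were the members, Kit, the 2 genes of each pathway list with the smallest unadjusted p, and the 3 nearest genes in pool pattern; marker lists and other genes are given for context, and a gene that the rule takes is not reported here. Alternatives were DESeq2 size factors or upper-quartile scaling, no filter on low counts, a minimum of 1 CPM in 3 pools, DESeq2 1.42.0, limma-voom 3.58.1, robust fitting and each pool left out in turn. Leaving out untreated pool 3 and RUX pool 4 together was added after seeing the data. For Cish, Socs1 and Socs5 these were the lowest and the highest pool, so that fit had to give them smaller differences.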

Additional observations from a re-analysis of the deposited data

How the results depend on the processing

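In all 14 other settings 0 of the 8 members had an adjusted p under 0.05. Cish, Socs1, Socs2, Socs5 and Socs7 kept a positive log2 fold change in all of them, over ranges of 0.39 to 0.66, 0.18 to 1.07, 0.15 to 0.59, 0.11 to 0.34 and 0.02 to 0.52, with pools left out at both ends. Of 112 member values compared, 104 kept their sign and 8 did not, all with pools left out: Socs3 ranged from −0.205 to 0.216, Socs6 from −0.104 to 0.0308 and Socs4 from −0.0800 to 0.0767 with single pools left out, and Socs4 was at −0.0550 without untreated pool 3 and RUX pool 4 together. Without the low-count filter, where p-values ignored each gene's own spread between pools, 14 of all genes passed in place of 0. Of these, 9 were neutrophil markers lower in RUX pools (Retnlg, Lcn2, Mmp9, S100a8, S100a9, Mmp8, Camp, Ngp and Ltf, log2 fold changes of −1.07 to −0.69), and the mast cell and basophil marker Prss34 was higher (1.19). The 1 pathway gene was the leptin receptor gene Lepr (40, 59 and 8 counts in RUX pools 4, 5 and 6; 0, 4 and 5 in untreated pools 1, 2 and 3); these genes were named after their values were seen, and the cause was not tested. At an unadjusted p under 0.05 the count of all genes was 254 in the reported fit, 604 without the filter, 179 to 666 with a single pool left out (666 without untreated pool 2 and 545 without untreated pool 3) and 503 without untreated pool 3 and RUX pool 4. No member's level per kilobase moved by more than the spread between pools. No paired analysis was possible because the groups share no pool numbers. Counting error in a single pool reached 19.2% for Socs3 and 18.6% for Socs1, more than for the other members.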
